A study of Mus musculus with 4 samples.

Results

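The difference between genotypes in the response to TGFB1 was measured gene by gene in mouse embryonic fibroblasts (MEF). For each gene, the log2 change from Ctrl to TGFB1 in *Hmga2*-/- MEF minus the same change in *Hmga2*+/+ MEF was taken, after 0.1 was added to every RPKM (reads per kilobase of transcript and per mapped reads of the library). This value is called the difference in response. It is positive where a gene was induced more, or repressed less, without *Hmga2*, and negative in the opposite cases. A gene was represented by its transcript with the longest gene body and was kept where at least 1 library had 1 RPKM, which held for 11377 of the 25923 genes in the table, 10742 of them protein-coding. Genes were called where the difference in response reached 1.5-fold in either direction, a log2 value of 0.58.

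The series holds 4 RNA-seq libraries of total RNA, 1 for each combination of genotype and treatment. All cells came from C57BL/6 embryos at embryonic day 15.5, without head, limbs, tail, viscera, liver and heart, and had been immortalized with SV40. They were *Hmga2*+/+ (wild type) or *Hmga2*-/-, the latter written *Hmga*-/- in 1 label, were starved overnight in medium with 1% serum, and then received human recombinant TGFB1 at 10 ng/ml or, as Ctrl, water for 24 h. Starvation and SV40 were thus common to all groups, the cells carried the deletion from the embryo on, and how many embryos or clones stand behind each genotype was not given in the sources used here. With 1 library per condition, no difference described here has a replicate check, no p-value is given, and a difference between the genotypes cannot be told apart from one between 2 cell lines. The intervals given are 95% intervals from counting error alone and compare these 4 libraries, not the conditions.

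TGFB1 binds a pair of serine/threonine kinase receptors, which phosphorylate SMAD2 and SMAD3. These enter the nucleus with SMAD4 and turn on genes of the extracellular matrix, of contractile stress fibres and of their own feedback inhibition, the program by which fibroblasts become myofibroblasts in scars and in fibrosis. HMGA2 is a chromatin protein of embryonic and mesenchymal cells that binds the minor groove of AT-rich DNA through its AT hooks and is itself induced by TGFB1.

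The targeted gene was checked first. *Hmga2*, at chromosome 10, 120361275 to 120476935, minus strand (mm10), had 14.8 RPKM in *Hmga2*+/+ Ctrl, 40.7 RPKM in *Hmga2*+/+ TGFB1, and 0 reads in both *Hmga2*-/- libraries. The labels and the deleted gene thus match, and its own difference in response follows from the deletion. The libraries had between 56140000 and 57300000 mapped reads, as derived from the steps of the RPKM values, and a median of 1030 to 1061 reads on a measured gene. Summed markers of fibroblasts stood at 2561 to 3049 RPKM, and *Vim* was the highest of these 13 genes. In bulk RNA, fewer cells of a type and less RNA per cell cannot be told apart. Summed markers of leukocytes reached 1.42 to 2.06 RPKM and of skeletal muscle 0.41 to 0.60 RPKM, with *Ptprc*, *Cd3e*, *Myod1* and *Myog* under 0.1 RPKM in all libraries. Endothelial markers summed to 6.68 to 12.3 RPKM, epithelial markers to 2.76 to 6.06 RPKM, cartilage and bone markers to 3.83 to 6.2 RPKM, and neural markers, mostly *Map2*, to 12 to 24 RPKM. *Pecam1*, *Cdh5*, *Krt5* and *Sox10* were under 0.1 RPKM in all libraries.

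Most genes responded alike in both genotypes. The 2 log2 changes had a Pearson correlation of 0.85 and a Spearman correlation of 0.87 across the 11377 genes, which share the 4 libraries and are not replicates, and the principal axis had a slope of 1.03. The difference in response was within 1.5-fold for 10797 genes (94.9%), its median was 0.05, and 90% of genes lay between -0.37 and 0.47. It was at least 1.5-fold higher without *Hmga2* for 341 genes (3.0% of those measured) and at least 1.5-fold lower for 239 genes (2.1%). This order depended on the scaling: with the libraries rescaled by their median ratio, which shifts every difference by -0.06, 294 were higher and 302 lower, and with differences centred within classes of transcript length 285 were higher and 286 lower. The counting interval lay entirely above 0 for 24.8% of all genes and entirely below 0 for 15%. Near the threshold, *Cacfd1* and *Rsph9* passed at 0.59, *D6Wsu163e* did not at 0.58, *Snord58b* passed at -0.59, and *Ifit3* did not at -0.58.

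**Figure D1:**
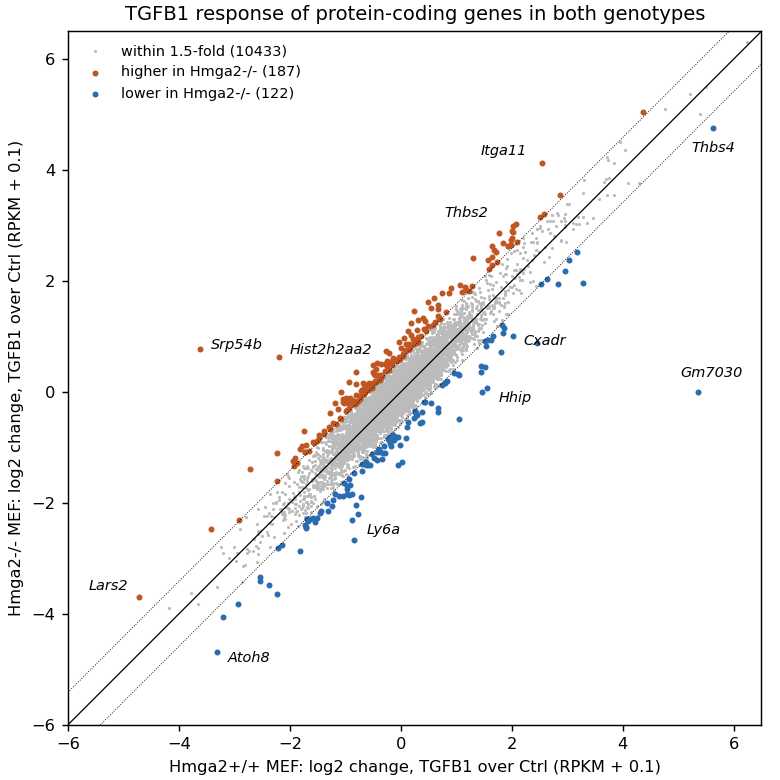
Log2 change from Ctrl to TGFB1 in *Hmga2*+/+ MEF (horizontal) and in *Hmga2*-/- MEF (vertical) for 10742 protein-coding genes, on the RPKM + 0.1 scale. The solid line marks equal changes and the dotted lines a 1.5-fold difference, beyond which lie 187 genes in orange above and 122 genes in blue below. The cloud follows the line of equal changes over the whole range.

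Genes were called induced or repressed from the mean of both genotypes' log2 changes, so that neither genotype chose them. Of the 1371 induced genes (12.1% of those measured), 96 (7.0%) were induced at least 1.5-fold more without *Hmga2* and 56 (4.08%) at least 1.5-fold less. Of the 1780 repressed genes (15.6%), repression was at least 1.5-fold stronger without *Hmga2* for 101 (5.67%) and weaker for 86 (4.83%). Another 159 higher and 82 lower differences fell on genes in neither class. With classes chosen in *Hmga2*+/+ MEF alone, 89 of 1339 induced genes had the weaker and 56 the stronger response in *Hmga2*-/- MEF. Of 1936 repressed genes 162 then had the weaker and 64 the stronger repression. The wild-type change enters both that choice and, with a minus sign, the difference. The choice thus by itself tilts both counts to the weaker side, and no conclusion is drawn from the turned order.

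Each difference in response is the genotype gap under TGFB1 less the gap in Ctrl, so the libraries behind it were compared. Of the 341 higher differences, 107 (31.4%) had a gap of at least 1.5-fold under TGFB1 only, 70 (20.5%) in Ctrl only, with the *Hmga2*-/- library lower there, and 109 in neither. Another 41 had it in both treatments with opposite signs and 14 in both with the same sign. Of the 239 lower differences, 75 (31.4%) had the gap under TGFB1 only, 77 (32.2%) in Ctrl only, with the *Hmga2*-/- library higher there, 46 in neither, 17 in both with opposite signs and 24 in both with the same sign.

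Genes of the extracellular matrix and its receptors stood among the higher differences, and some among the lower. Of 16 matricellular genes 1 passed 1.5-fold higher, *Thbs2*, and 1 lower, *Thbs4* (-0.88), beside 3.0% and 2.1% of all genes. Of 22 proteoglycan and hyaluronan genes none passed higher. In that list *Acan* passed lower (-0.65, at most 1.15 RPKM), and *Dcn* fell just short at -0.58. *Itga11*, the collagen-binding integrin alpha 11 subunit of fibroblasts (chromosome 9, 62677855 to 62783979, plus strand, mm10), had 1.56 RPKM in *Hmga2*+/+ Ctrl, 9.603 in *Hmga2*+/+ TGFB1, 0.82 in *Hmga2*-/- Ctrl and 16.1 in *Hmga2*-/- TGFB1. It was lower than wild type in Ctrl and higher under TGFB1, with inductions of 5.86-fold and 17.5-fold and a difference in response of 1.58 (1.36 to 1.80). *Thbs2*, the matricellular protein thrombospondin 2 (chromosome 17, 14665500 to 14694262, minus strand), went from 28.5 to 116 RPKM with *Hmga2* and from 17.2 to 137 RPKM without. Its difference in response was 0.96 (0.91 to 1.02), and most of it lay in the lower *Hmga2*-/- Ctrl library. *Tll1*, a tolloid protease that removes the C-terminal propeptide of procollagens (chromosome 8, 64014770 to 64205993, minus strand), went from 5.29 to 17.1 RPKM and from 5.09 to 30.5 RPKM. Here the Ctrl libraries stood together and the TGFB1 libraries apart, with a difference in response of 0.89 (0.77 to 1.00).

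*P4ha3*, a catalytic subunit of collagen prolyl 4-hydroxylase (chromosome 7, 100285520 to 100319699, plus strand), had 3.65 and 6.19 RPKM in *Hmga2*+/+ Ctrl and TGFB1 and 2.24 and 7.98 RPKM in the *Hmga2*-/- libraries. The genotypes crossed between Ctrl and TGFB1, and the difference in response was 1.05 (0.81 to 1.28). It belongs to a list of 22 enzymes and chaperones of collagen processing and crosslinking. Of these 20 had a difference above 0, beside 59.1% of all genes, and 17 an interval above 0, beside 24.8%. An interval below 0 was found for 1, *P3h2*, beside 15% of all genes. Of the list 3 passed 1.5-fold higher, *P4ha3*, *Loxl3* (0.61) and *P3h4* (0.60), beside 3.0% of all genes. None passed lower, beside 2.1%. The median of the list was 0.28, beside 0.05 over all genes, and its log2 change went from a median of 0.26 with *Hmga2* to 0.59 without. *Lox*, the lysyl oxidase that crosslinks collagen and elastin, went from 155 to 547 RPKM with *Hmga2* and from 146 to 726 RPKM without (difference in response 0.49, interval 0.47 to 0.51). *Plod2*, the lysyl hydroxylase of collagen telopeptides, went from 13.2 to 26.5 RPKM and from 10.4 to 29.5 RPKM (0.50, 0.40 to 0.59). With the libraries rescaled by their median ratio, which lowers every difference by 0.06, only *P4ha3* of the list still passed 1.5-fold and the median was 0.22.

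The collagens themselves were mixed in size. Of 8 fibrillar collagen genes 7 had an interval above 0, beside 24.8% of all genes, and *Col3a1* had one below 0. Their median was 0.24, and *Col27a1* (0.71) was the single one past 1.5-fold, beside 3.0% of all genes. *Col1a1*, the main collagen of scar tissue, went from 325 to 363 RPKM with *Hmga2* and from 272 to 363 RPKM without, so that the TGFB1 libraries were level and the difference of 0.26 (0.24 to 0.27) lay in Ctrl. Among 10 other collagens 3 passed 1.5-fold, all higher, beside 3.0% of all genes: *Col8a2* (0.87), *Col10a1* (0.86) and *Col7a1* (0.68), the anchoring fibril collagen. *Col10a1*, the collagen of hypertrophic cartilage, had 8.24 and 6.40 RPKM with *Hmga2* and 10.7 and 15.1 RPKM without. *Col12a1* went the other way at -0.38 (-0.41 to -0.35). *Eln*, the elastic fibre protein elastin, had a difference of 0.75 (0.59 to 0.92), with 3.61 and 14.6 RPKM in the *Hmga2*+/+ libraries and 2.63 and 18.1 RPKM in the *Hmga2*-/- libraries, while the 14 elastic fibre genes together had a median of 0.00. Secreted metalloproteases of the ADAMTS family went both ways, with 0.92 for *Adamts4*, 0.66 for *Adamts12* and -0.41 (-0.49 to -0.33) for *Adamts5*. Of 22 metalloproteinases and inhibitors 13 were above 0, beside 59.1% of all genes, and 9 below. Of these 22 genes 3 passed 1.5-fold, all higher, beside 3.0% of all genes.

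**Figure D2:**
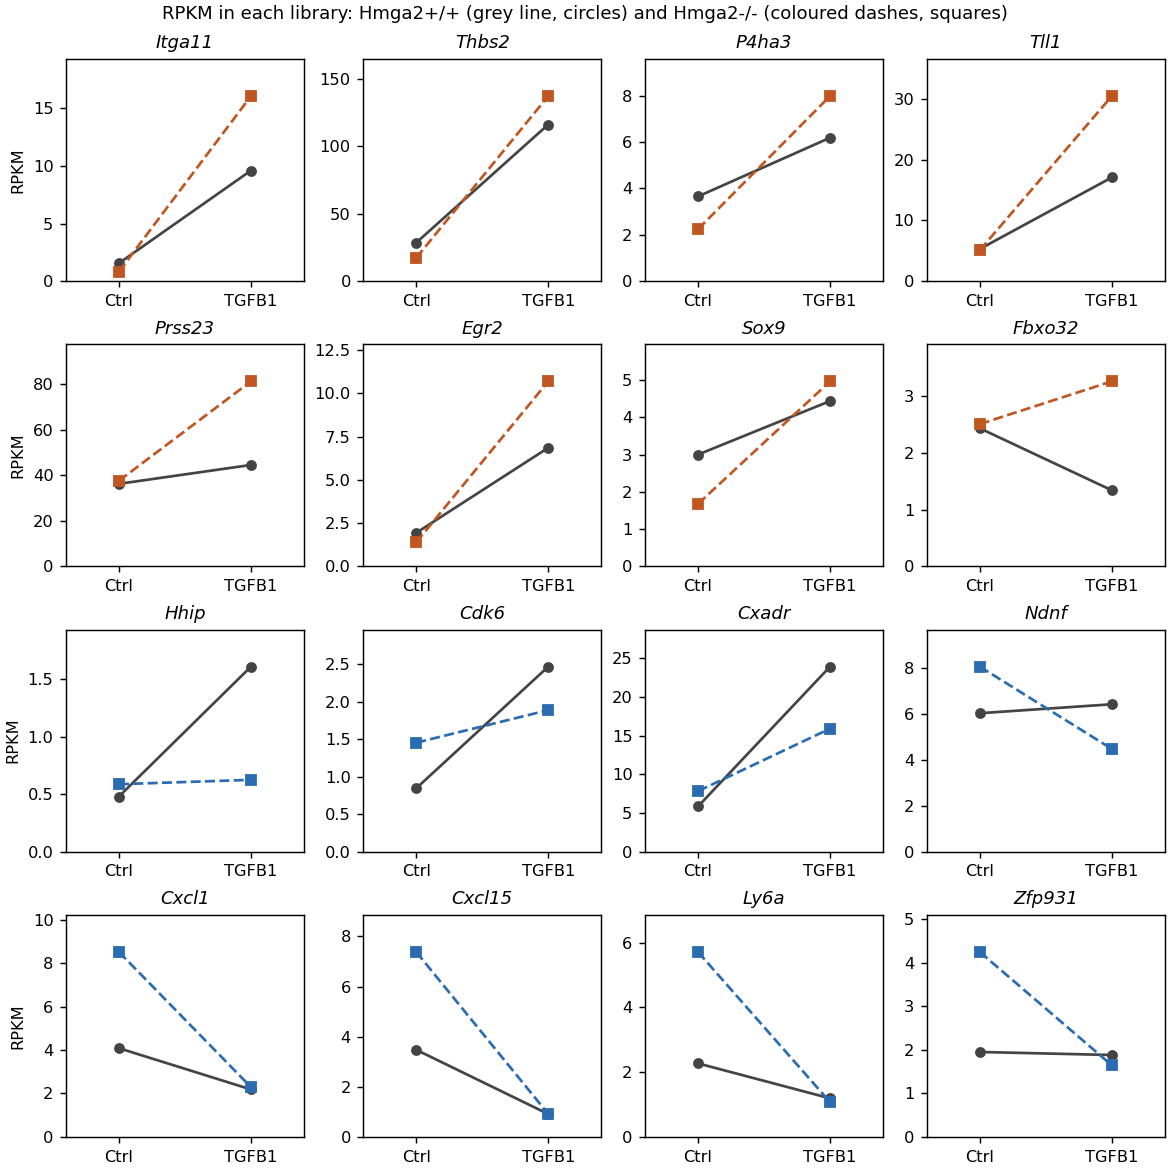
RPKM in each of the 4 libraries for 8 genes with a higher (orange) and 8 with a lower (blue) difference in response, each panel with its own axis from 0 and 1 library per point. For *Cxcl1*, *Cxcl15*, *Ly6a* and *Zfp931* the genotypes are apart in Ctrl and close under TGFB1, whereas for *Tll1*, *Fbxo32* and *Hhip* they are close in Ctrl and apart under TGFB1.

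Among the direct targets of TGFB1 signalling the differences were uneven. *Ccn2* (*Ctgf*), a matricellular growth factor, went from 13.2 to 173 RPKM with *Hmga2* and from 24.9 to 359 RPKM without, a difference of 0.15 (0.06 to 0.23). The related *Ccn4* passed 1.5-fold at 0.64 (0.54 to 0.74), and *Ccn3*, repressed in both genotypes, was lower at -0.72 (-0.85 to -0.60). Of 18 SMAD and feedback genes none passed 1.5-fold. Of these 10 had an interval above 0, beside 24.8% of all genes, and 3 below, beside 15%. After rescaling by the median ratio 5 intervals lay above 0, beside 16.8% of all genes, and 3 below, beside 21.6%. The median difference was 0.14. The largest were *Tgif1* (0.48) and the inhibitory *Smad7* (0.39), which had 6.40 and 10.6 RPKM with *Hmga2* and 6.67 and 14.6 RPKM without. Of 18 ligands, receptors and binding proteins *Inhbb*, a subunit of activin B, was lower at -0.64, and *Tgfb1* itself fell short of 1.5-fold at 0.57 (0.40 to 0.74).

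The contractile genes differed little in response. None of 24 contractile and cytoskeletal targets of the serum response factor passed 1.5-fold, with a range of -0.15 to 0.42 and a median of 0.08. Of these 19 were above 0, beside 59.1% of all genes. Intervals lay above 0 for 12, beside 24.8% of all genes, and below 0 for 4, beside 15%. After rescaling by the median ratio 13 were above 0, beside 48.2% of all genes, and 11 below. *Acta2*, smooth muscle alpha-actin, rose from 15.9 to 58.3 RPKM with *Hmga2* and from 48.2 to 165 RPKM without, a difference of -0.10 (-0.17 to -0.02). Its level was higher without *Hmga2* in both treatments, by a log2 gap of 1.60 in Ctrl and 1.502 under TGFB1, and the list was shifted likewise, by a median log2 gap of 0.40 in Ctrl and 0.51 under TGFB1. *Fn1*, fibronectin, went from 465 to 818 RPKM and from 404 to 769 RPKM (0.12, 0.11 to 0.13).

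Several transcription factors were induced more without *Hmga2*. *Egr2*, a zinc finger factor of the immediate-early class, had 1.94 and 6.85 RPKM with *Hmga2* and 1.39 and 10.7 RPKM without, a difference of 1.09 (0.83 to 1.34). *Sox9*, the HMG-box factor of cartilage, went from 2.998 to 4.43 RPKM and from 1.68 to 4.96 RPKM, which put it at 0.96 (0.76 to 1.17). *Snai1*, the repressor of E-cadherin, had 1.73 and 1.53 RPKM with *Hmga2* and 1.89 and 2.79 RPKM without. It thus rose only without *Hmga2*, a difference of 0.71 (0.30 to 1.12). The Notch targets *Hey1* and *Hey2* reached 0.96 and 1.09 at levels of at most 1.30 RPKM. Of the 22 factors of the AP-1 and immediate-early list only *Egr2* passed 1.5-fold, of 18 mesenchymal factors *Sox9* and *Snai1*, and of 9 Notch genes *Hey1* and *Hey2*, with list medians of 0.07, 0.08 and 0.10. Over all genes 3.0% passed higher and 2.1% lower. Of the mesenchymal factors 6 had an interval above 0, beside 24.8% of all genes, and 5 below, beside 15%. After rescaling by the median ratio 3 lay above, beside 16.8%, and 6 below, beside 21.6%. *Prrx1*, of that list, went the other way at -0.38 (-0.42 to -0.34).

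Genes outside the matrix also stood high in the ranking. *Fbxo32*, the F-box subunit of a ubiquitin ligase known from muscle atrophy (chromosome 15, 58175879 to 58214892, minus strand), had 2.43 and 1.34 RPKM with *Hmga2* and 2.50 and 3.26 RPKM without. It fell with TGFB1 in wild-type cells and was higher with TGFB1 in knockout cells, a difference of 1.18 (1.00 to 1.37). *Prss23*, a secreted serine protease, went from 36.2 to 44.5 RPKM and from 37.5 to 81.1 RPKM (0.81, 0.75 to 0.87), and *Crispld2* had 0.84 and 2.21 RPKM against 0.71 and 4.22 RPKM (1.12, 0.81 to 1.42). *Gadd45b*, a stress-induced member of the GADD45 family, had 5.98 and 8.10 RPKM against 5.98 and 14.5 RPKM, a difference of 0.84 (0.60 to 1.08). It was the single one past 1.5-fold among 26 p53 targets and GADD45 genes (median 0.21), beside 3.0% of all genes. Of these 16 had an interval above 0, beside 24.8% of all genes, and 3 below, beside 15%. *Ube2l3*, a ubiquitin-conjugating enzyme, had 13.7 and 15.5 RPKM against 12.9 and 30.5 RPKM (1.06, 0.94 to 1.17). Its transcript of 3029 bases had 1.60 and 1.36 RPKM against 1.47 and 13.7 RPKM. On both transcripts the *Hmga2*-/- TGFB1 library alone stood apart, and whether they shared the same reads was not tested.

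Cholesterol and fatty acid synthesis showed small differences, mostly of 1 sign. Of its 33 genes none passed 1.5-fold in either direction, yet 31 were above 0, beside 59.1% of all genes, 27 had an interval above 0, beside 24.8% of all genes, and 2, *Fdft1* and *Fdps*, had an interval below 0. The median was 0.26 and stayed at 0.20 after rescaling, where 24 intervals lay above 0, beside 16.8% of all genes. *Dhcr7*, the last reductase of the pathway, had 13.8 and 9.80 RPKM with *Hmga2* and 8.79 and 8.68 RPKM without, a difference of 0.47 (0.33 to 0.61). The list was below wild type by a median log2 gap of -0.42 in Ctrl and of -0.21 under TGFB1, so the gap was narrower under TGFB1. The 29 genes of the unfolded protein and amino acid response lay in between, with a median of 0.15. Of these 20 had an interval above 0, beside 24.8% of all genes, and 2 below, beside 15%. *Sdf2l1* (0.54) and *Creld2* (0.49), both of the endoplasmic reticulum, were the largest.

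**Figure D3:**
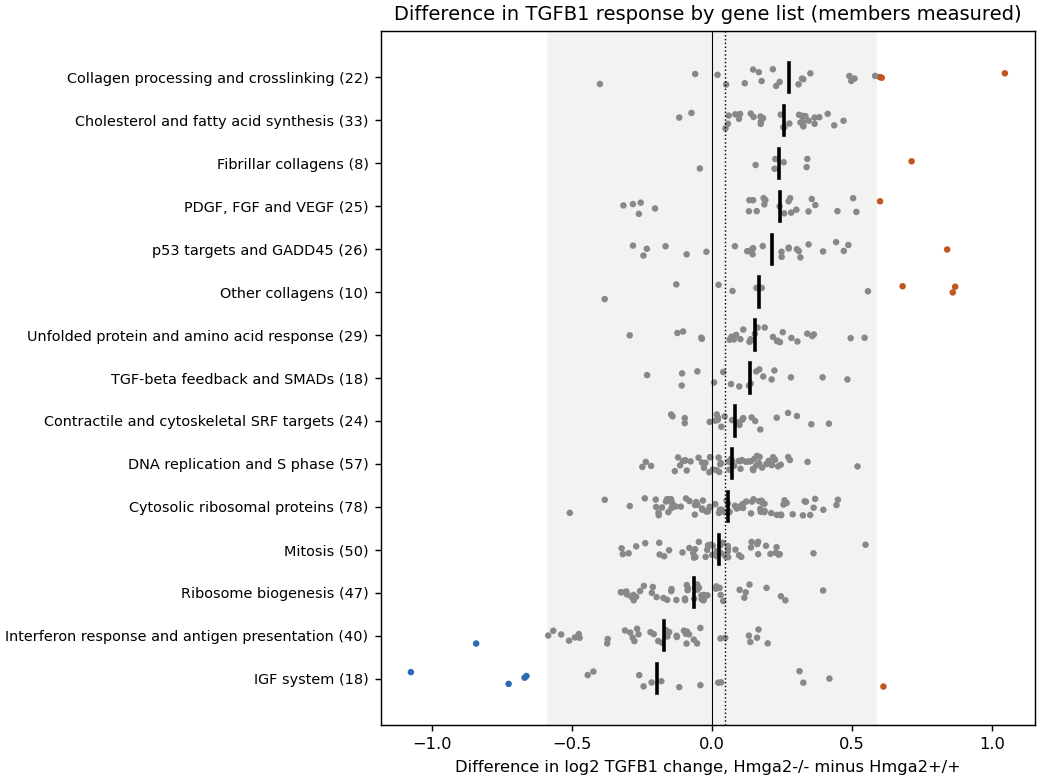
Difference in response of each measured member of 15 of the 48 function lists, with the number of members in brackets. Black bars are list medians, the dotted line is the median of all 11377 genes (0.05), the grey band is 1.5-fold, and orange and blue points lie beyond it. Medians run from 0.28 for collagen processing to -0.20 for the IGF system, inside the band for every list drawn.

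Interferon-stimulated genes stood mostly on the negative side. TGFB1 lowered most of the 40 genes of the interferon response and antigen presentation in both genotypes, with a median log2 change of -0.61 with *Hmga2* and -0.73 without. *Mx1* passed 1.5-fold lower, beside 2.1% of all genes, and none passed higher, beside 3.0%. Of the 40 genes 33 had a difference below 0, beside 40.9% of all genes. Of their intervals 25 lay below 0, beside 15% of all genes, and 5 above 0, beside 24.8%. The median was -0.17. After rescaling 4 genes passed 1.5-fold, 35 were below 0, beside 51.8% of all genes, 30 intervals lay below 0, beside 21.6% of all genes, and the median was -0.23. The 5 on the other side were *B2m*, *Tapbp*, *Isg15*, *H2-D1* and *Irgm1*, of which *B2m*, *Tapbp* and *H2-D1* belong to antigen presentation. *Mx1*, the antiviral dynamin-like GTPase (chromosome 16, 97447035 to 97462906, minus strand), had 12.3 and 5.98 RPKM with *Hmga2* and 12.1 and 3.24 RPKM without (-0.84, -1.02 to -0.66). *Ifit3*, an interferon-induced protein with tetratricopeptide repeats, had 75.3 and 32.5 RPKM against 72.9 and 20.9 RPKM (-0.58, -0.67 to -0.50). *Rsad2*, the antiviral enzyme viperin, had 13.1 and 6.97 RPKM against 11.9 and 4.25 RPKM (-0.57, -0.70 to -0.43). In all 3 the Ctrl libraries stood within 10% of each other and the *Hmga2*-/- TGFB1 library was the lowest of the 4. Leukocyte markers summed to 1.42 RPKM in *Hmga2*+/+ TGFB1 and 1.43 RPKM in *Hmga2*-/- TGFB1, mostly *Cd68*. Of the 14 markers 13 were under 1 RPKM in each library, and a part of other cells in these differences was not tested.

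**Figure D4:**
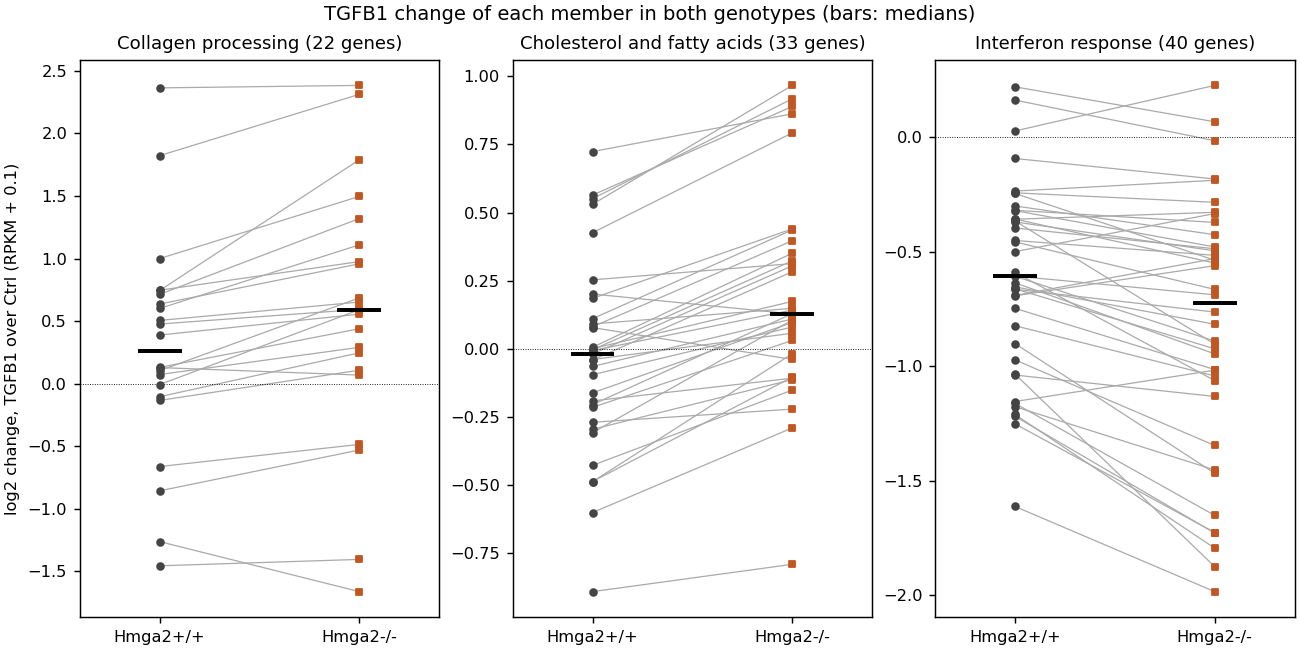
Log2 change from Ctrl to TGFB1 (RPKM + 0.1) of each member of 3 lists in *Hmga2*+/+ MEF (grey circles) and *Hmga2*-/- MEF (orange squares), joined by a line per gene, with black bars at the medians and axes that differ between panels. The medians go from 0.26 to 0.59 for collagen processing, from -0.02 to 0.13 for cholesterol and fatty acid synthesis, and from -0.61 to -0.73 for the interferon response.

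The promoters of the interferon list are shown because most of its members had a difference below 0 and some of them carry a known element. The interferon-stimulated response element, searched as GAAANNGAAA on both strands in the 250 bases before each annotated start (RefSeq, GRCm38.p6), was present in 14 of 36 promoters of the list (38.9%) and in 2.67% of the 11038 promoters of measured genes. The 5 members with the element and the largest differences follow, 5′ to 3′ on the gene's strand with the element in capitals, here always as its reverse complement TTTCNNTTTC and in *Gbp3* as a pair of overlapping copies: *Ifit3* from chr19:34583328-34583427 (plus strand), *Rsad2* from chr12:26456518-26456617 (minus strand), *Gbp2* from chr3:142620559-142620658 (plus strand), *Ifit3b* from chr19:34607724-34607823 (plus strand) and *Gbp3* from chr3:142559954-142560043 (plus strand).
*Ifit3*: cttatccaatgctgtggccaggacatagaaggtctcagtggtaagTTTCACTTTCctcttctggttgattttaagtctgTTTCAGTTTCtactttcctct
*Rsad2*: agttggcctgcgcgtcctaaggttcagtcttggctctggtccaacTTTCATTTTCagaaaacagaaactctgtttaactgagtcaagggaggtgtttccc
*Gbp2*: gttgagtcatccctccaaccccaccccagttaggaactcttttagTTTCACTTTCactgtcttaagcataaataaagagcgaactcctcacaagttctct
*Ifit3b*: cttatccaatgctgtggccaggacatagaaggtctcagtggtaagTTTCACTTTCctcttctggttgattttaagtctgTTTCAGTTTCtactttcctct
*Gbp3*: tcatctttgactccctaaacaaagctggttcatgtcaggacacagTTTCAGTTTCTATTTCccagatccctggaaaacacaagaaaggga
*Ifit3* and *Ifit3b* are near-identical neighbours, also in this stretch, and their reads may not be fully separable. The 14 members with the element had a median difference in response of -0.25, with 11 below 0, and the 17 members whose listed promoters lack these letters had a median of -0.13, with 14 below 0. The element is a description of these windows and not evidence that a factor was bound there.

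Genes of the IGF system stood on both sides. Of 18 genes of the IGF system 4 passed 1.5-fold lower, beside 2.1% of all genes, and 1 higher, beside 3.0%. The median was -0.20, and after rescaling 4 passed lower and none higher. *Stc2*, stanniocalcin 2, which inhibits cleavage of IGF binding proteins, had 0.67 and 2.11 RPKM with *Hmga2* and 1.67 and 2.32 RPKM without (-1.07, -1.52 to -0.63). *Igfbp4*, an IGF binding protein, had 30.8 and 9.90 RPKM against 38.0 and 7.64 RPKM (-0.67, -0.81 to -0.53), and *Irs1*, the adaptor of the insulin and IGF receptors, had 14.3 and 12.3 RPKM against 15.3 and 8.31 RPKM (-0.66, -0.73 to -0.59). *Igf2bp2*, an mRNA-binding protein known as an HMGA2 target, had 24.9 and 22.7 RPKM with *Hmga2* and 0.72 and 0.35 RPKM without, with 158 and 78 reads in the latter, and its difference was -0.73 (-1.05 to -0.40). *Igf1*, by contrast, was repressed from 1.48 to 0.83 RPKM with *Hmga2* and had 0.73 and 0.64 RPKM without, a difference of 0.61 (0.35 to 0.88). The gap of *Igf1* between genotypes was thus narrower under TGFB1 than in Ctrl.

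The neutrophil-attracting chemokines *Cxcl1* and *Cxcl15*, which lie near each other on chromosome 5, differed in Ctrl. *Cxcl1* had 4.08 and 2.19 RPKM with *Hmga2* and 8.51 and 2.29 RPKM without (-0.98, -1.39 to -0.56). *Cxcl15* had 3.48 and 0.91 RPKM against 7.38 and 0.92 RPKM (-1.06, -1.44 to -0.68). Under TGFB1 both genotypes were level, and the excess in *Hmga2*-/- Ctrl was gone. *Cxcl14*, a chemokine of skin and stroma, was on the higher side at 0.74 (0.49 to 0.99), and the 14 chemokines had a median of 0.04. The IL-33 receptor *Il1rl1* rose from 18.9 to 156 RPKM and from 36.5 to 189 RPKM (-0.67, -0.72 to -0.62), again with the wider gap in Ctrl. *Ly6a*, the surface antigen Sca-1 of mesenchymal progenitors, had 2.27 and 1.19 RPKM against 5.72 and 1.08 RPKM (-1.43, -1.97 to -0.89), a pattern like that of *Cxcl1*.

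Single genes of other functions, and some of the matrix and its receptors, completed the lower side. *Hhip*, a membrane decoy for hedgehog ligands (chromosome 8, 79965851 to 80058008, minus strand), went from 0.48 to 1.61 RPKM with *Hmga2* and from 0.59 to 0.63 RPKM without. The *Hmga2*+/+ TGFB1 library stood apart from the other 3, and the difference was -1.48 (-1.74 to -1.22). *Cdk6*, the cyclin D-dependent kinase of G1 (chromosome 5, 3343893 to 3531005, plus strand), went from 0.84 to 2.47 RPKM and from 1.45 to 1.89 RPKM (-1.09, -1.26 to -0.91). *Cxadr*, a junctional adhesion protein and virus receptor (chromosome 16, 78301671 to 78359785, plus strand), was induced in both genotypes, from 5.84 to 23.9 RPKM and from 7.82 to 15.9 RPKM (-0.999, -1.18 to -0.82). *Ndnf*, a secreted neuron-derived neurotrophic factor, was level with *Hmga2* at 6.04 and 6.43 RPKM and fell from 8.07 to 4.48 RPKM without (-0.92, -1.06 to -0.78). *Thbs4*, thrombospondin 4, was among the most induced genes of both genotypes, from 1.97 to 103 RPKM and from 4.10 to 113 RPKM, and its difference of -0.88 (-1.06 to -0.70) lay in the Ctrl libraries. *Itgb8*, the integrin subunit that activates latent TGF-beta, had 4.50 and 3.89 RPKM against 4.15 and 2.14 RPKM (-0.72, -0.95 to -0.49), the opposite sign to *Itga11*.

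Growth and housekeeping functions were close to equal. Ribosome biogenesis was induced in both genotypes, with 44 of 47 genes induced and median log2 changes of 1.09 and 1.01. Its small difference was mostly negative, with a median of -0.06. Of the 47 genes 19 had an interval below 0, beside 15% of all genes, and 5 above 0, beside 24.8%. No gene of this list passed 1.5-fold, and none of 50 mitosis genes (median 0.02), of 57 DNA replication genes (0.07) or of 78 cytosolic ribosomal proteins (0.06) did. Replication-dependent histone genes had 4 lower and 1 higher among 51, beside 2.1% and 3.0% of all genes, with a median of -0.14. Their near-identical copies make single values uncertain. *Mtor* (-0.13, -0.22 to -0.04) and *Rptor* (-0.02, -0.14 to 0.09) were near 0. Across the settings run *Mtor* ranged from -0.40 to 0.008 and *Rptor* from -0.08 to 0.01. *Gata6* had 1.45 and 1.196 RPKM with *Hmga2* and 1.11 and 1.11 RPKM without, a difference of 0.26 with an interval of -0.10 to 0.61, not detectable at this depth.

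Transcript length and level moved with these values. Among protein-coding genes with a mean of at least 5 RPKM, the median difference in response was 0.03 to 0.06 in the classes of under 1000, 1000 to 2000 and 2000 to 4000 bases, 0.01 at 4000 to 8000 bases and -0.18 for the 299 transcripts of 8000 bases or more, where 17.4% were above 0. In that longest class the median log2 change was 0.14 with *Hmga2* and -0.02 without. *Hhip*, with 9053 bases, *Cdk6*, with 11507, *Irs1*, with 9160, and *Adamts5*, with 8089, belong to lengths with negative values. The part of length in their differences was not tested. The value nearest 0 in any setting was -0.52 for *Irs1*, short of 1.5-fold, and -0.27 for *Adamts5*. With differences centred within classes of length, the list medians were 0.20 for collagen processing, 0.24 for cholesterol and fatty acid synthesis, -0.23 for the interferon response and -0.13 for the IGF system. Called genes were also low in level, with a median of mean RPKM of 1.55 for the higher and 1.47 for the lower ones beside 6.75 for all, and the share called higher fell from 16.6% under 1 RPKM to 0.66% at 10 to 30 RPKM. Of the 580 called genes 164 were miRNA and 50 snoRNA genes, and of 345 genes with a transcript under 200 bases 222 were called. RNA of such loci was counted as reads on hairpins, not as mature miRNA.

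**Figure D5:**
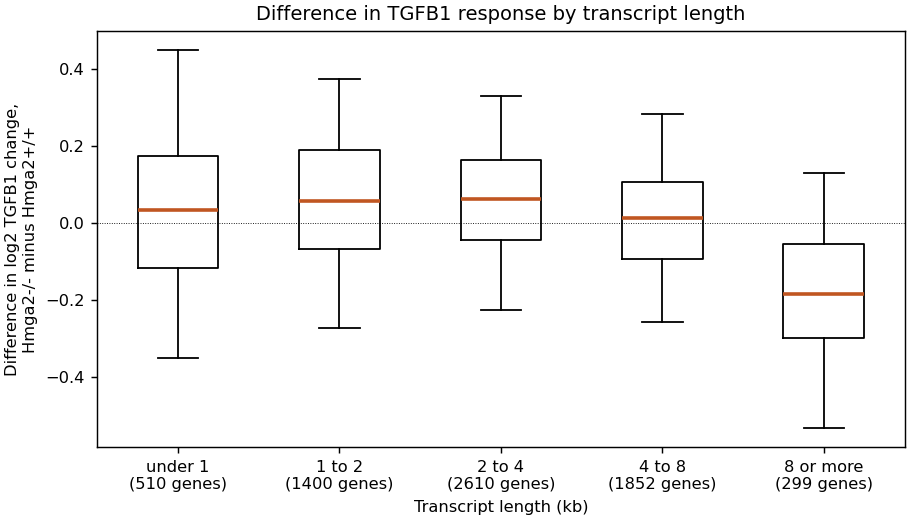
Difference in response by transcript length for protein-coding genes with a mean of at least 5 RPKM in the 4 libraries. Boxes span the quartiles with the median in orange, and whiskers the 5th to 95th percentiles; the median is -0.18 for 299 transcripts of 8 kb or more and between 0.01 and 0.06 in the 4 shorter classes.

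Some of the ranked genes carry limits in how they were counted. *Ahnak*, a giant scaffold protein, ranked low with 295, 386, 495 and 383 RPKM in *Hmga2*+/+ Ctrl and TGFB1 and *Hmga2*-/- Ctrl and TGFB1, read on a transcript of 1189 bases, and its transcript of 18091 bases had 122, 140, 168 and 137 RPKM. Both transcripts were highest in *Hmga2*-/- Ctrl. *Lars2*, the mitochondrial leucyl-tRNA synthetase, had 136 and 5.07 RPKM against 66.5 and 5.04 RPKM (1.02, 0.90 to 1.15) on its long transcript, whereas a transcript of 3419 bases had 0.32 to 0.51 RPKM. *Gm15564*, a short antisense locus picked after its values were seen, behaved alike with 185 and 3.98 RPKM against 75.2 and 2.76 RPKM. *Rpph1*, the RNA of RNase P and also picked after its values were seen, had 1719, 1415, 2702 and 1054 RPKM in the same order of libraries. *Gm7030*, an MHC class I-like locus with near-identical relatives, had 0, 3.99, 0 and 0 RPKM. *Dio3*, the enzyme that inactivates thyroid hormone, had 0.37 and 0 RPKM against 1.62 and 0.04 RPKM, and the sign of its difference depended on the value added to 0.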

How the data were processed

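RNA-seq of 4 libraries, 1 per condition, was analysed from the table of RPKM that the authors deposited. The reads were trimmed with Trimmomatic, mapped to mm10 with HISAT2 2.1.0 and quantified with HOMER, per the submitters' processing notes and the study's methods. The file header names exons as the counted feature and the plus strand, whereas the methods name genes. The study speaks of duplicates of 1 experiment, and whether these were pooled in a column was not given in the sources used here. Low values were whole multiples of what 1 read is worth: at the derived depths 100% of the 929 to 941 values tested per library lay within 0.1 of a whole read. No per-sample column was left unused. Since the values are RPKM without replicates, no count test was run.

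Of 63759 transcripts 57708 (90.5%) took the name of the GENCODE M21 gene (GRCm38) on their strand that covered 50% or more of them. After 0.1 was added, log2 changes and their differences were taken with Python 3.11.15, numpy 2.4.6 and pandas 2.3.3, and figures were drawn with matplotlib 3.10.9. Adding 0.1 understates the change of low genes. Intervals are Wald intervals from the derived reads, cover counting error only and fail near 0 reads; 3 reads on 1000 bases correspond to 0.05 RPKM. The steps were tested on simulated data. Genes named are the 15 protein-coding genes in each direction whose interval bound nearest 0 was most extreme, the 4 members of each list with the largest absolute difference, *Hmga2*, the genes the study assays (*Gata6*, *Mtor*, *Igf1*, *Rptor*) and known TGFB1 targets (*Ctgf*, *Smad7*, *Acta2*, *Fn1*, *Col1a1*). Other genes named in the text were picked from the lists after their values were seen, and not every gene that meets the rule is reported here. The genes and lists were chosen with earlier results of these data known. A comparison of promoter GC content was void, since under 80% of genes had a promoter in the RefSeq table. Alternatives changed the value added, the filter, the scaling, the transcript, the threshold and the gene class.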

Additional observations from a re-analysis of the deposited data

Results flagged for a closer look

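Of all measured genes 47 moved at least 1.5-fold in opposite directions in the 2 genotypes, and the difference was not tested. Of these 38 were miRNA and 5 snoRNA genes, and 45 of the 47 had under 50 reads in every library. The 2 protein-coding genes among them were *Hist2h2aa2* and *Srp54b*. *Hist2h2aa2*, a replication-dependent histone gene, had 6.32 and 1.29 RPKM in the *Hmga2*+/+ libraries and 1.69 and 2.66 RPKM in the *Hmga2*-/- libraries, with 44 to 211 reads and a difference in response of 2.83 (2.19 to 3.46). Near-identical histone genes exist, so its reads may not be fully its own.

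*Srp54b*, a copy of the gene for a signal recognition particle subunit, had 1.72 RPKM in *Hmga2*+/+ Ctrl and 0.05, 0.04 and 0.14 RPKM in *Hmga2*+/+ TGFB1, *Hmga2*-/- Ctrl and *Hmga2*-/- TGFB1. Its difference of 4.39 (3.84 to 4.95) rests on 1 library alone. The neighbouring copies *Srp54a*, with 2.24 to 2.49 RPKM, and *Srp54c*, with 2.18 to 2.91 RPKM on its shorter transcript, showed no such drop. How reads were split between the copies was not tested.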

How the results depend on the processing

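The slope stayed between 1.01 and 1.04 in every setting run, and no list median moved by 1.5-fold in the 457 comparisons made. The medians were small, so a move of that size could hardly occur. Some changed sign between settings, with a range of -0.08 to 0.09 for MAPK feedback genes. The range was -0.26 to 0.01 for cytokines of the IL-6 family and others. No paired analysis was possible because each condition holds a single library. Counts are given in the order higher, lower, induced weaker, induced stronger, repressed weaker and repressed stronger, and the cause of a change was not tested, beyond the smaller or larger number of genes that entered. Adding 1 in place of 0.1 gave 173, 134, 24, 46, 26 and 32. No filter on low values gave 1062, 825, 137, 194, 295 and 249. A mean of at least 5 RPKM gave 63, 39, 9, 26, 4 and 16. A 2-fold threshold gave 118, 102, 18, 24, 30 and 25. Protein-coding genes alone gave 187, 122, 28, 62, 41 and 61. With classes chosen in *Hmga2*+/+ MEF alone, a choice that by itself tilts the counts to the weaker side, the last 4 were 89, 56, 162 and 64. After the data were seen, transcripts of at least 200 bases were tried, which gave 214 higher, 144 lower, 31 induced weaker and 48 repressed weaker, and differences centred within 20 classes of transcript length, which gave 285 higher and 286 lower. Rescaling by the median ratio shifted all differences by -0.06 and turned 341 higher and 239 lower into 294 and 302, so the share of called genes that were higher went from 58.8% to 49.3%. Among named genes *Dio3* reversed, to 0.17 when 0.01 was added and to 3.13 when 0 RPKM was set to 0.001, 28 values moved by over 1.5-fold and 1609 did not. *Fndc1* had -1.87 on its most abundant transcript. Depth limits genes under about 1 RPKM, where the called share was highest.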

Other observations

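Some groups outside the comparisons above also held members past 1.5-fold. Over all genes 3.0% passed higher and 2.1% lower. The Wnt pathway was split, with *Wnt9a* (0.81) and *Wnt5a* (0.60) higher and *Rspo2* (-0.69) and *Axin2* (-0.67) lower among 24 genes, and a median of 0.00. *Wnt5a*, a ligand of beta-catenin-independent signalling, had 4.61 and 10.9 RPKM with *Hmga2* and 5.71 and 20.4 RPKM without. *Rspo2*, which enhances Wnt signalling at the receptor, was repressed from 33.0 to 13.1 RPKM and from 40.3 to 9.92 RPKM. *Dusp10*, a phosphatase of the stress kinases p38 and JNK, was level with *Hmga2* at 4.25 and 4.41 RPKM and rose from 4.12 to 8.17 RPKM without, a difference of 0.92 (0.72 to 1.12). Among 44 ion channel genes the mechanosensitive channel *Piezo2* (0.65), *Trpv4* (0.63) and the chloride channel *Ano1* (0.95) were higher and *P2rx5* (-0.73) was lower.

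Among growth factors of the PDGF, FGF and VEGF families 20 of 25 were above 0, beside 59.1% of all genes, with a median of 0.24. *Fgfr3* (0.60) passed 1.5-fold higher, beside 3.0% of all genes, and none of the 25 did after rescaling. *Vegfa*, the main angiogenic factor, had 13.2 and 39.9 RPKM with *Hmga2* and 10.3 and 44.5 RPKM without (0.50, 0.41 to 0.60). Adipogenic genes, 9 of 12 of which were repressed, had a median of -0.17 (-0.21 to 0.004 across the settings run) and no member past 1.5-fold. In the interferon list *Iigp1*, an interferon-inducible GTPase, had 33.2 and 13.9 RPKM against 32.1 and 9.63 RPKM (-0.48, -0.58 to -0.37).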
